A study of Mus musculus with 4 samples.

Results

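The 3 loci examined were the alpha-globin locus (Hba-a1 and Hba-a2), the beta-globin locus (Hbb-b1 and Hbb-y) and Bcl11a, in all 5 genes, in haematopoietic stem cells (HSCs) of fetal and adult mice. They were described by the topologically associating domains (TADs) that held them, 6 TADs of the 4628 in the study's 2 lists. A TAD is a stretch of chromosome whose parts contact each other more often than they contact the neighbouring stretches, and a boundary is the position where a TAD starts or ends. The genes were chosen by name, as globin genes and a repressor of embryonic globin genes, and their TADs by position alone. The choice was made with earlier results of these data known. The positions were approximate, on mm9: chromosome 11 from 32.18 to 32.2 Mb for alpha-globin, chromosome 7 from 110.95 to 111.03 Mb for beta-globin and chromosome 11 from 23.97 to 24.08 Mb for Bcl11a. Genes of 1 locus could not be told apart at this precision, so Hba-a1 shares its values with Hba-a2 and Hbb-b1 with Hbb-y.

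The study measured contacts by Hi-C, in which DNA ends that are near each other in a fixed nucleus are ligated and the junctions sequenced. The fetal group had 2 samples, HSCs of fetal liver taken at embryonic day 14.5, and the adult group 2, HSCs of bone marrow from mice 6 to 8 weeks old. Both were of the strain B6129SF1, a first-generation hybrid of C57BL/6 with another inbred strain, with no transgene or treatment named in the labels. Both were sorted as Lin-Sca1+cKit+CD135-, a gate that holds stem cells and other early multipotent cells, and neither was an erythroid population. The files give 1 TAD list per group, 2318 fetal and 2310 adult TADs, with no score, so the values that follow have neither a replicate error nor a test, and the contact depth is unknown. The lists carry no expression values, so the cell types could not be checked against marker genes and globin or Bcl11a RNA was not analysed here.

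Haemoglobin is built from alpha-like and beta-like chains, whose genes lie in separate clusters and are transcribed in red cell precursors. Each cluster is driven by distant enhancers, which for alpha-globin lie within and near Nprl3 on the lower-coordinate side of the genes, and for beta-globin form the locus control region beyond Hbb-y on the higher-coordinate side. In the mouse, Hbb-y serves the embryo and the adult beta genes serve fetal liver and adult marrow. Bcl11a encodes a zinc-finger repressor that silences the embryonic beta-like genes, is also needed for lymphoid development, and acts in HSCs.

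At the alpha-globin locus the TADs of both lists began at the same base and ended far apart. Hba-a1 and Hba-a2, which encode the adult alpha chain, lay in a fetal TAD from 31545001 to 32225000 of chromosome 11, 680 kb long. In the adult list they lay in a TAD from 31545001 to 32635000, 1090 kb long and 1.60 times the fetal length. The upper end was thus 410 kb farther out in the adult list. The fetal boundary at 32225000 lay 25 kb beyond the end of the gene pair, whereas the nearest adult boundary, at 32635000, lay 435 kb beyond it. The locus therefore sat at the edge of its fetal TAD, at 94.9% of the way along it, and nearer the middle of its adult TAD, at 59.2%. Of all 10 kb steps inside fetal TADs, 6.06% lay no farther than 25 kb from a boundary. In the adult list, 71.7% of steps lay no farther than 435 kb from one.

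The distance of 25 kb is within the tolerance used for boundaries. Nearly all list coordinates fall on a 10 kb grid, the locus position is approximate, and a boundary of the other list within 40 kb was counted as shared. With the locus widened by 50 kb on both sides, the fetal boundary lay inside it. The side of the fetal boundary on which Hba-a2 and its neighbours lie was not resolved.

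The fetal and adult TADs at alpha-globin overlapped by 62.4% of the longer one, and were therefore no counterparts by the rule used here, which asks for at least 80%. Over the whole lists, 73.4% of fetal and 73.7% of adult TADs had a counterpart. On chromosome 11 alone the shares were 55.2% and 49.1%, lower than over the whole lists. The part of this chromosome-wide difference in the alpha-globin result was not tested. An overlap of 62.4% or less was found for 18.7% of the 2318 fetal TADs. An end displaced by 410 kb or more from the best-matching adult TAD was found for 18.6% of them, and for 34.4% of the 96 on chromosome 11.

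The neighbourhood of the alpha-globin genes was divided more finely in the adult list (shown in the map of TADs around the 3 loci). Chromosome 11 as a whole also had more adult TADs, 108 against 96 fetal ones. Their median lengths were 835 kb in the adult and 990 kb in the fetal list. The fetal list had no TAD between 35625000 and 43255001 of this chromosome. The part of such uncovered stretches in the difference of the counts was not tested. Between the boundary at 31545000, the same in both lists, and the next shared one (fetal 34635000, adult 34655000), there were 2 fetal TADs, 680 and 2410 kb long. The adult TADs numbered 4, with lengths of 1090, 420, 540 and 1060 kb. The single inner fetal boundary, at 32225000, and the 3 inner adult ones, at 32635000, 33055000 and 33595000, had no partner within 40 kb. On the lower-coordinate side a fetal TAD of 2520 kb stood against adult TADs of 2040 and 480 kb that met at 31065000. Of 1910 stretches between shared boundaries that were wholly covered by TADs in both lists, 7.07% held further boundaries of both lists, as this one did. In 6.91% the further boundaries were of the fetal list alone, in 8.27% of the adult list alone, and 77.7% of stretches had none. On chromosome 11 alone, 27.6% of 58 stretches held further boundaries of both lists. The alpha-globin stretch held 4 further boundaries over both lists, and 4 or more were found in 0.995% of all stretches and 13.8% of those on chromosome 11, a limit set after this stretch was seen.

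**Figure D1:**
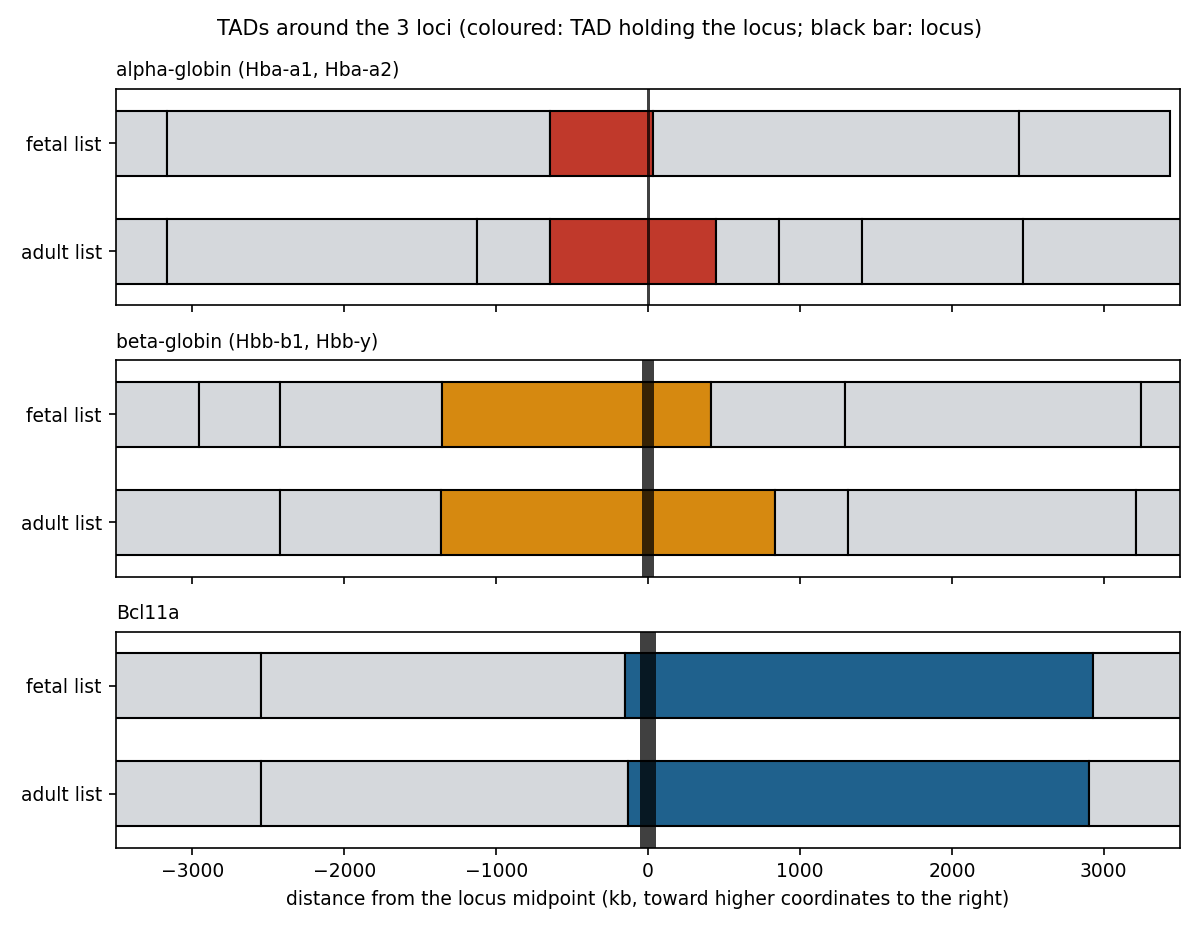
TADs of the fetal and adult list around each locus, drawn to scale against the distance in kb from the locus midpoint, with the TAD holding the locus in colour, other TADs in grey, the locus as a black bar and stretches without a TAD left white. The upper end of the holding TAD differs by 410 kb at alpha-globin and 420 kb at beta-globin, while both ends of the Bcl11a TAD differ by 30 kb or less.

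In the gene order of GRCm38, the genes below Hba-a1 are Hba-x, the embryonic zeta-like gene, then Nprl3, which holds alpha-globin enhancers in its introns, Mpg, a DNA repair glycosylase, and Rhbdf1. Hbq1b, a theta-like gene, lies between Hba-a1 and Hba-a2. Above Hba-a2 follow Hbq1a, Sh3pxd2b, an adaptor protein of podosomes, and Ubtd2. This gene table is of another build than the TAD lists, so it gives order only. Which of the upper genes lie between the fetal end at 32225000 and the adult end at 32635000 was not analysed here.

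The promoters of the alpha pair are shown because near-identical copies limit what sequencing reads can tell apart there. For 4 of the 5 genes the RefSeq table held a promoter (GRCm38.p6, not comparable with the mm9 TAD positions), and the 250 bases before the start site were read. In this and the following sequences, capitals mark CCAAT, the CCAAT box of many promoters, TGACCA, the motif that BCL11A is known to recognise, and GATC, the site cut by MboI, the enzyme of this Hi-C. All motifs were searched on both strands. Hba-a1 lies on the plus strand at chr11:32283422-32283671 and Hba-a2 on the plus strand at chr11:32296242-32296491.
Hba-a1: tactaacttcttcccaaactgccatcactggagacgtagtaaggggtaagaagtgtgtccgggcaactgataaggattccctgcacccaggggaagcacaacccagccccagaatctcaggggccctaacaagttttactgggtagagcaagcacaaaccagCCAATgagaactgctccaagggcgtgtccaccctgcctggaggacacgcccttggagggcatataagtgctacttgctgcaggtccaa
Hba-a2: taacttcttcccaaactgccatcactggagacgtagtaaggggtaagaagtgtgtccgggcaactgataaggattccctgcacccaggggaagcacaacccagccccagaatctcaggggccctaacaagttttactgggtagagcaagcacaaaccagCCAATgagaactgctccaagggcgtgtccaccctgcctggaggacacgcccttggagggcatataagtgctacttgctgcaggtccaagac

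When aligned, both promoters shared 247 bases with 0 differences, so the windows differ only by where they begin. Each held 1 CCAAT box and a TATAA, the core of a TATA box, which began 27 bases before the start site of Hba-a1 and 30 before that of Hba-a2. TATAA was found in 22.8% of promoters. A read lying wholly in the shared stretch matches both copies, and the sources used here do not say how such reads were treated. Neither promoter held GATC, which 41.9% of the 32851 promoters in the table did. The MboI sites nearest to the alpha-globin promoters thus lay outside these windows.

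At the beta-globin locus, too, the lower ends of the TADs nearly coincided and the upper ends did not. Hbb-b1, an adult beta gene, and Hbb-y, the embryonic epsilon-like gene, lay in a fetal TAD from 109635001 to 111405000 of chromosome 7, 1770 kb long. The adult TAD ran from 109625001 to 111825000 and was 2200 kb long, 1.24 times the fetal length. The lower end was 10 kb lower in the adult list, which is 1 step of the grid. The upper end was 420 kb higher. The locus control region also lies on the upper side, but its position against these boundaries was not analysed. A relation of the displacement to it was not tested. The fetal boundary at 111405000 lay 375 kb beyond the locus and the adult one at 111825000 lay 795 kb beyond it.

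The locus sat well inside its TAD in both lists, at 76.6% of the way along the fetal and 62.0% of the way along the adult TAD. Of 10 kb steps inside TADs, 64% of the fetal ones and 89.7% of the adult ones lay no farther from a boundary than this locus. In the adult list the locus was thus farther from any boundary than most positions were. Both TADs were long for their lists. Only 12.3% of fetal TADs and 6.06% of adult TADs were as long or longer.

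The beta-globin TADs overlapped by 80.5% of the longer one, just inside the 80% limit, so they were counterparts by that rule. At a limit of 90% they were not. A displacement of given size lowers this overlap less in a longer TAD. The larger end displacement was 420 kb here and 410 kb at alpha-globin, so the overlaps do not rank the loci by displacement. An overlap this low or lower was found for 26.9% of fetal TADs, and an end displaced by 420 kb or more for 18.3% of all fetal TADs and 22.5% of the 120 on chromosome 7. Chromosome 7 was close to the whole lists in its share of counterparts, with 74.2% of fetal and 76.1% of adult TADs.

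Between the shared boundaries around the beta-globin locus each list had 1 further boundary. The fetal stretch ran from 109635000 to 112285000 and the adult one from 109625000 to 112305000. It was divided into fetal TADs of 1770 and 880 kb and adult TADs of 2200 and 480 kb. The same 2-part division, with 1 inner boundary in each list and none of them shared, was found in 4.24% of the 1910 stretches. Below the locus, the next fetal TAD was 1070 kb long and the next adult TAD 1060 kb. The boundary at 108565000 was the same in both, and the fetal list had a further boundary at 108035000 inside an adult TAD of 2220 kb.

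Genes below Hbb-y in the GRCm38 order are Hbb-bh1, another embryonic beta-like gene, Hbb-bh2, Hbb-bs and Hbb-bt, then the olfactory receptor genes Olfr67, Olfr68 and Olfr69. Above Hbb-y the next 3 are Olfr66, Olfr64 and Olfr65. The cluster is therefore embedded in olfactory receptor genes on both sides. Hbb-bs and Hbb-bt are the adult beta genes of C57BL/6, and Hbb-b1 is an adult beta gene of another haplotype found among laboratory strains. Which haplotypes these hybrid mice carried was not tested. The lists do not separate the parental chromosomes.

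The promoter of Hbb-y is shown because it is a gene that Bcl11a is known to silence. It lies on the minus strand at chr7:103853208-103853457 of GRCm38.p6, and the motif of BCL11A and the CCAAT box overlap in it.
Hbb-y: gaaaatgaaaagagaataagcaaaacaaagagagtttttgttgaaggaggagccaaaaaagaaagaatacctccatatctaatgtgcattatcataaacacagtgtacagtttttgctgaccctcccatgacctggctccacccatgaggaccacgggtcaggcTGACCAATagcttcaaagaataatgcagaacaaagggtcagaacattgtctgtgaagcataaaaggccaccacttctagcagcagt

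TGACCA lay 86 to 81 bases before the start site and CCAAT 83 to 79 bases before it, so that the motifs share 3 bases. The motif TGACCA was found in 11.4% of the 32851 promoters and CCAAT in 33.8%, and neither Hba-a1, Hba-a2 nor Bcl11a held TGACCA. The letters CACCC, the core of the motif that KLF1 and related factors bind, began 111 bases before the start site of Hbb-y. Each of the other 3 promoters had 2 matches, and 52.0% of all promoters had at least 1. GATA factors, which drive red cell genes, bind AGATAA and TGATAA. The first was in none of the 4 promoters and in 9.99% of all. The second was in 7.94% of all and began 183 bases before the start site of Hba-a1, 186 before that of Hba-a2 and, on the opposite strand, 162 before that of Hbb-y, and was not in the Bcl11a window. Like the alpha promoters, that of Hbb-y held no GATC. These are matches of letters, and binding was not measured.

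At Bcl11a both ends of the TAD were nearly the same in both lists. The gene lay in a fetal TAD from 23875001 to 26955000 of chromosome 11, 3080 kb long, and in an adult TAD from 23895001 to 26925000, 3030 kb long. The lower end was 20 kb higher and the upper end 30 kb lower in the adult list, which makes the adult TAD 50 kb shorter. The overlap was 98.4% of the longer TAD, and 71.4% of fetal TADs had that overlap or a lower one. The length of this TAD raises its overlap for a displacement of given size, so this share does not rank it by displacement. Both ends lay within 40 kb of those of the best match for 64.1% of fetal and 64.3% of adult TADs over the whole lists, but for 31.2% and 27.8% on chromosome 11. An end displaced by 30 kb or more was found for 44.0% of all fetal TADs and 80.2% of those on chromosome 11. The Bcl11a TAD was thus like most TADs of the genome, and among the fewer on its chromosome that had both ends kept.

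These TADs were among the longest, with 2.07% of fetal and 2.08% of adult TADs as long or longer. Bcl11a lay at their lower edge, at 4.87% of the way along the fetal and 4.29% along the adult TAD. The nearest fetal boundary was 95 kb below the gene and the nearest adult one 75 kb below it. Of 10 kb steps inside TADs, 20.1% and 16.7% lay no farther from a boundary. The distance of the gene was taken from its edge and that of a step from its centre, which counts the gene as nearer. Above the gene the fetal TAD went on for 2875 kb and the adult TAD for 2845 kb. In the GRCm38 order the genes below Bcl11a are Papolg, a poly(A) polymerase, Rel, an NF-kappa-B subunit, Pus10 and Pex13. Above it follow Fancl, a ubiquitin ligase of the Fanconi anaemia pathway, Vrk2 and Ccdc85a.

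The kept boundaries at Bcl11a belonged to a longer run. Over 12.7 Mb, from 16355000 to 29025000 by fetal coordinates, each list had 7 boundaries, all of them paired. The offsets, adult minus fetal, were 10, 20, -10, 0, 20, -30 and 0 kb in order along the chromosome. The run thus held 6 TADs in each list with no further boundary in either. Among 359 such runs in the genome the median held 3 TADs and 25.1% held 6 or more, and runs of 6 or more held 55.4% of all TADs that lay in a run. The longest run on chromosome 11 held 7 TADs, and the longest of all 24. The run ended at 29025000, below the TADs next to the alpha-globin locus on the same chromosome, where the adult boundary at 31065000 had no fetal partner.

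The promoter of Bcl11a is shown for contrast with those of the globin genes. It lies on the plus strand at chr11:24080445-24080694 of GRCm38.p6.
Bcl11a: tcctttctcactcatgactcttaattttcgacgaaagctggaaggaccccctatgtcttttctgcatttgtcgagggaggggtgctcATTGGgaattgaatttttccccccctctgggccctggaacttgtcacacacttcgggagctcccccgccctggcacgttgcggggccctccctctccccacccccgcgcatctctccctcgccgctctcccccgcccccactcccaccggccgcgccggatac

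It had a GC content of 62% and 16 CpG dinucleotides, against 54% and 4 in Hba-a1, 54.4% and 4 in Hba-a2, and 42% and 1 in Hbb-y. The medians over all promoters were 52.4% and 6. The CCAAT box, read on the opposite strand, lay 163 to 159 bases before the start site, farther away than in the globin genes. The exact letters TATAA were found neither here nor in Hbb-y, and variant forms of a TATA box were not searched. GATC was in none of the 4 promoters.

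The boundaries within 500 kb of each locus were then compared between the lists. The fetal list had 1 near each locus, 3 in all, and the adult list had 1 near alpha-globin, 0 near beta-globin and 1 near Bcl11a, 2 in all. The order depended on the window, since within 1000 kb there were 4 fetal and 5 adult boundaries. A count of 1 was the commonest, at 50.6% of 10 kb steps inside fetal TADs and 50.3% inside adult TADs, and 0 was found at 23.7% of adult steps. Taken at the midpoints of TADs, 35.5% of fetal and 33.2% of adult TADs had 0 boundaries within 500 kb. At a midpoint this is only the share of TADs longer than 1000 kb, so it is no background for the loci.

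Of the boundaries near the loci, 1 of the 3 fetal boundaries and 1 of the 2 adult boundaries had a partner within 40 kb, the pair below Bcl11a. Over the whole lists, 83.4% of fetal and 83.5% of adult boundaries had one. On chromosome 7 the shares were 84% and 86.1%, and on chromosome 11 they were 61.6% and 55.5%. The fetal boundary near alpha-globin and the fetal boundary near beta-globin lay 410 and 420 kb from the nearest adult one. Such distances or larger ones were found for 6.69% and 6.56% of fetal boundaries, and for 6.69% and 6.57% of adult ones. These shares are over all chromosomes. No such share is given for chromosome 11 alone, where fewer boundaries had a partner. With 3 and 2 boundaries, these counts describe the loci and cannot be read as a rate.

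**Figure D2:**
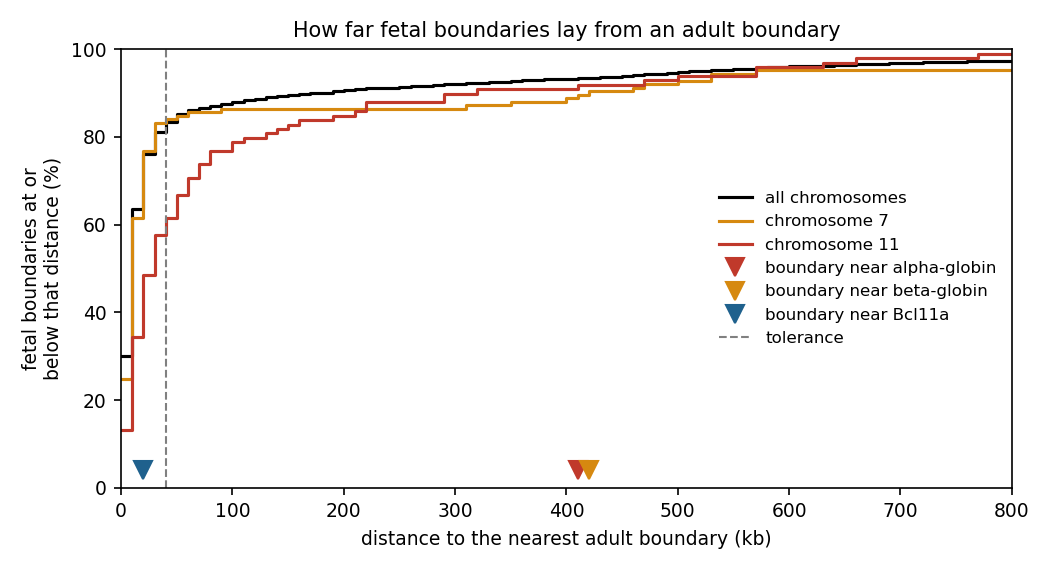
Cumulative share of fetal boundaries (vertical axis, %) by the distance to the nearest adult boundary (horizontal axis, kb), for all chromosomes, chromosome 7 and chromosome 11, with triangles at the distances of the boundaries near the 3 loci and a dashed line at the 40 kb tolerance. The Bcl11a boundary, at 20 kb, lies inside the tolerance, and those near alpha-globin and beta-globin, at 410 and 420 kb, lie far outside it.

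Set side by side, the globin loci had the following features in common. The lower end of the TAD was kept, within 0 and 10 kb. The adult TAD was the longer one, by 410 and 430 kb. The inner boundary of the fetal list had its nearest adult boundary at a higher coordinate. That is the same displacement of the upper end again, and no separate feature. Some TADs had 1 end kept within 40 kb and the other farther out in the adult list by at least 410 kb. These were 10.1% of fetal TADs over all chromosomes, on either side. In the opposite direction, 12.9% of adult TADs had 1 end kept and the other at least that much farther out in the fetal list. A displacement of 1 end alone, of any size over 40 kb, was found for 29.4% of fetal and 31.1% of adult TADs, and 6.56% and 4.59% had neither end kept or overlapped no TAD of the other list. The loci were chosen with earlier results of these data known. The features common to the globin loci were noted after the values were seen. Bcl11a shared the first of these, with its lower end 20 kb apart, but its adult TAD was the shorter one and its stretch held no inner boundary.

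**Figure D3:**
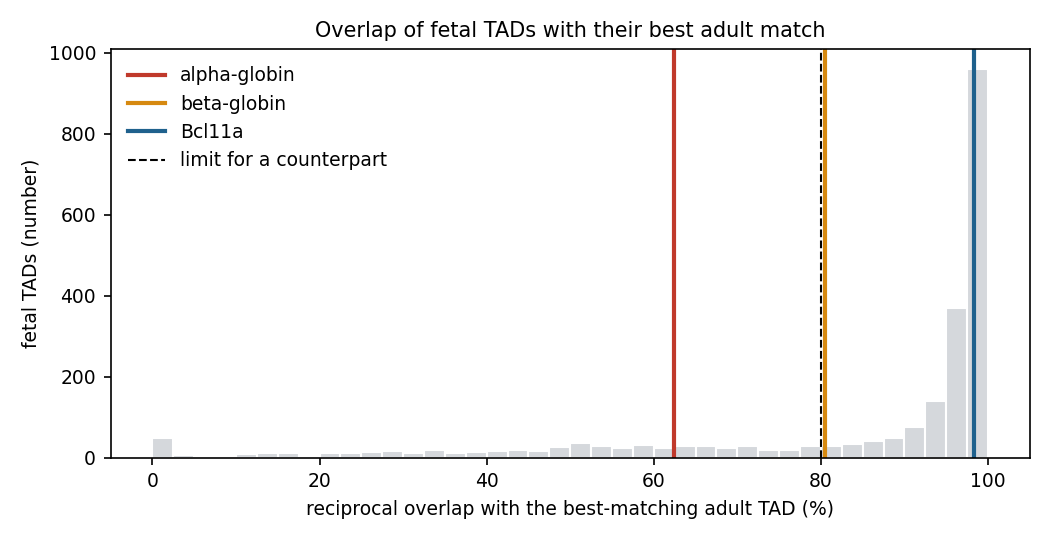
Number of fetal TADs (vertical axis) by reciprocal overlap with the best-matching adult TAD (horizontal axis, %), with coloured lines at the TADs holding the 3 loci and a dashed line at the 80% limit for a counterpart. Alpha-globin, at 62.4%, lies below the limit, beta-globin, at 80.5%, lies just above it, and Bcl11a, at 98.4%, lies near the median of all fetal TADs, 96.4%, and above the median of those on chromosome 11, 82.8%.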

How the data were processed

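The authors deposited 1 TAD list per cell type, as base-pair coordinates (chromosome, start, end) without a score. Per the submitters' processing notes, the build was mm9, and HiC-Pro and GSNAP were used. The sources used here do not name the TAD caller or its settings, nor say whether samples were pooled, and each could change the number and position of boundaries. Per the labels' protocols, cells were fixed with 1% formaldehyde for 10 min and the chromatin was digested with MboI. Contact depth is unknown, so no boundary carries an error.

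The TAD with the longest overlap with a locus was taken as its holding TAD. Boundaries were distinct starts and ends. They were near within 500 kb and shared within 40 kb. Counterpart TADs overlapped by at least 80% of the longer TAD. Ends and 10 kb steps were compared over all TADs as a description, with no p-value. Distances and windows of a locus were taken from its edges, and those of a step from its centre. A wide locus therefore counts as nearer to boundaries than a step at its midpoint. The functions for boundaries, shared stretches and best-matching TADs were tested on simulated lists (Python 3.11.15, pandas 2.3.3). Those lists were made from TADs of equal length without gaps, unlike the real ones. The choice of holding TADs, the 10 kb steps, the runs and the promoter searches were not tested in this way. Promoters and gene order came from RefSeq tables of GRCm38.p6, and no coordinate was converted. Named genes were the 5 members, with neighbouring genes as order only. The members and lists were chosen with earlier results of these data known. Alternatives were other tolerances, windows, overlap limits, a widened locus, the locus midpoint and single chromosomes. The use of 10 kb steps for boundary counts, the TGATAA search and the shares on chromosome 11 for stretches and kept ends were chosen after seeing the data.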

Additional observations from a re-analysis of the deposited data

How the results depend on the processing

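The overlap of the holding TADs, 62.4% at alpha-globin, 80.5% at beta-globin and 98.4% at Bcl11a, had the same value with the locus widened by 50 kb or taken at its midpoint. Each locus touched 1 TAD per list, so its midpoint had to fall in that TAD. The widening reached a boundary only at alpha-globin in the fetal list, 25 kb away, and most of the locus stayed in that TAD. The equal values are therefore no evidence of stability. Counterparts were found at 2 of the 3 loci, at 3 with an overlap limit of 50%, which took in alpha-globin, and at 1 with 90%, which left out beta-globin. Within 500 kb, 1 boundary per list was shared. None was at a tolerance of 0 kb, where the count was 0 in both lists, and 1 was at 20 and 100 kb. A window of 1000 kb gave 2 shared boundaries in each list, with 4 fetal and 5 adult boundaries near the loci, so the order at 500 kb, 3 fetal and 2 adult, turned. A window of 250 kb gave 2 and 1. The background share moved to 61.6% of fetal and 55.5% of adult boundaries on chromosome 11 alone, to 86.1% of adult ones on chromosome 7, to 30.1% and 30.2% at 0 kb, to 76.2% and 76.2% at 20 kb, and to 88.0% and 88.2% at 100 kb. A count was taken to stay within 1.5 times its value, a share within its 95% exact binomial interval and an overlap only at the same value. By these rules 18 of 34 alternative values stayed and 16 moved. Those that stayed include the overlaps of the holding TADs, which could hardly move. The cause of the lower share on chromosome 11 was not tested.

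No paired analysis was possible because each list stands for both samples of a cell type, and for that reason no sample was left out. Depth is unknown, so a boundary missed in 1 list and a difference in the cells cannot be told apart.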
